A study of Brassica napus with 3 samples.

Results

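The peaks described here are the binding sites of BnaC3.LFY on A02 and C02, a homoeologous pair of rapeseed (Brassica napus) chromosomes. They were taken from the deposited peak list by chromosome name alone, which gave 2408 peaks on A02 and 4421 on C02, or 6829 of 62949 peaks in all. The study used DAP-seq, in which a transcription factor prepared in vitro captures fragments of purified genomic DNA. There were 2 DAP libraries of BnaC3.LFY and 1 input library, all from DNA of tissue labelled both inflorescence and shoot apices, and no cultivar, age or treatment is given. The authors merged them into 1 list on the Westar v0 assembly. No value below therefore has an error between replicate libraries, and no test between conditions exists. Intervals are 95% intervals of counting (exact Poisson for densities, Wilson for shares, exact conditional binomial for ratios). They cover counting error only and treat peaks as independent, which neighbouring peaks are not. Sequencing depth is unknown.

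LEAFY is a transcription factor found only in plants. It makes primordia that form around the apex develop as flowers, and in Arabidopsis it binds as a dimer to DNA near floral identity genes such as APETALA1 and AGAMOUS. Rapeseed carries an A genome that came from Brassica rapa and a C genome that came from Brassica oleracea. A02 and C02 are the counterparts of each other in these genomes and are largely collinear. DAP-seq uses DNA without nucleosomes, so it does not read the accessibility of chromatin.

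A02 and C02 carried peaks at nearly the same density and differed in how strong the peaks were. The span of a chromosome runs to its last peak, which is 35.4 Mb on A02 and 65.8 Mb on C02. A02 held 68.0 peaks per Mb (65.3 to 70.7) and C02 held 67.2 (65.3 to 69.2), a C02 to A02 ratio of 0.989 (0.941 to 1.04). These values rank 7 and 10 from the top of the 19 chromosomes. The median fold enrichment over background, the authors' own value for each peak, was 5.94 on A02 (quartiles 4.59 and 8.68) and 6.11 on C02 (quartiles 4.71 and 9.96). Peaks with a -log10 q of at least 10 made up 48.8% on A02 and 51.2% on C02, against 50.6% in the whole list.

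Peaks are called strong here when their fold is among the highest 10% of the list, from 16.1 upwards. Strong peaks numbered 214 on A02 (8.89%, 7.81 to 10.1%) and 508 on C02 (11.5%, 10.6 to 12.5%), against 10% in the whole list. Per Mb this was 6.04 (5.26 to 6.90) on A02 and 7.72 (7.07 to 8.43) on C02, a ratio of 1.28 (1.09 to 1.51). The other same-numbered pairs, A01 with C01 and those of numbers 3 to 5, had ratios of 1.24 to 1.61. The pair thus lies at the low side of that range. Every C chromosome had a higher density of strong peaks than every A chromosome. The other A chromosomes held 4.56 to 6.38 per Mb and the other C chromosomes 6.99 to 8.01. The difference is therefore not particular to this pair. The strong share of A02 ranked 3 of 10 among the A chromosomes. That of C02 was level with the highest of the other C chromosomes, which spanned 10.7 to 11.5%. The members nearest to the threshold had folds of 16.11 and 16.06 on A02 and of 16.15 and 16.09 on C02.

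The C02 to A02 ratio was below 1 in the classes under a fold of 10 and highest between 20 and 30. Below a fold of 10 the density on A02 was higher in each of 4 classes, with C02 to A02 ratios between 0.870 and 0.957. Each of these 4 intervals includes 1. From 10 to 15 the ratio was 1.19 (1.01 to 1.39), and from 15 to 20 it was 1.22 (0.982 to 1.53). Between 20 and 30, A02 held 73 peaks, or 2.06 per Mb, and C02 held 212, or 3.22 per Mb, a ratio of 1.56 (1.19 to 2.07). In this class the other A chromosomes held 1.70 to 2.60 per Mb and the other C chromosomes 2.76 to 3.28.

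From a fold of 30 upwards the ratio was near 1, with a wide interval. A02 held 58 such peaks (2.41% of its peaks) and C02 held 110 (2.49%), against 2.19% in the whole list. The densities were 1.64 per Mb (1.24 to 2.12) on A02 and 1.67 (1.37 to 2.02) on C02, a ratio of 1.02 (0.737 to 1.43). That interval overlaps those of the classes from 10 to 15, 15 to 20 and 20 to 30. The ratios from a fold of 10 upwards therefore cannot be told apart. Only the interval of the class from 20 to 30 lies above all 4 intervals below a fold of 10. The other 9 A chromosomes held between 0.711 and 1.25 such peaks per Mb (1.01 ± 0.193, SD, n = 9 chromosomes). A02 was thus the highest of the A chromosomes in this class, and its value lay inside the range of the other C chromosomes, 1.49 to 1.90. Its interval, however, reaches down to 1.24, just below the 1.25 of the next A chromosome. Dixon's outlier rule, applied to 48 combinations of measure and chromosome including this one, called 0. Between 20 and 30, A02 ranked 7 of 10, below the mean of the other A chromosomes (2.20 ± 0.287 per Mb, SD, n = 9 chromosomes). The bound of 30 was chosen with these values known. A02 ranked first of the A chromosomes also from a fold of 25 (2.54 per Mb, others at most 2.17), of 35 (1.02, others at most 0.805) and of 40 (0.649, others at most 0.527). It ranked 2 of 10 from a fold of 20 and 4 of 10 from a fold of 50. At 25, 35 and 40 the interval of A02 also reached below the highest other A chromosome. These classes are nested, so the ranks rest partly on the same peaks and lend no separate support to the bound of 30. C02 ranked last of the 9 C chromosomes from a fold of 35, at 0.912 per Mb (0.696 to 1.17). The other C chromosomes held 0.929 to 1.18, so the last rank of C02 rests on a small difference. From a fold of 40 it held 0.487 per Mb. A02 thus had the higher value of the pair at 35 and at 40, but the intervals of the pair overlap at both bounds.

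**Figure D1:**
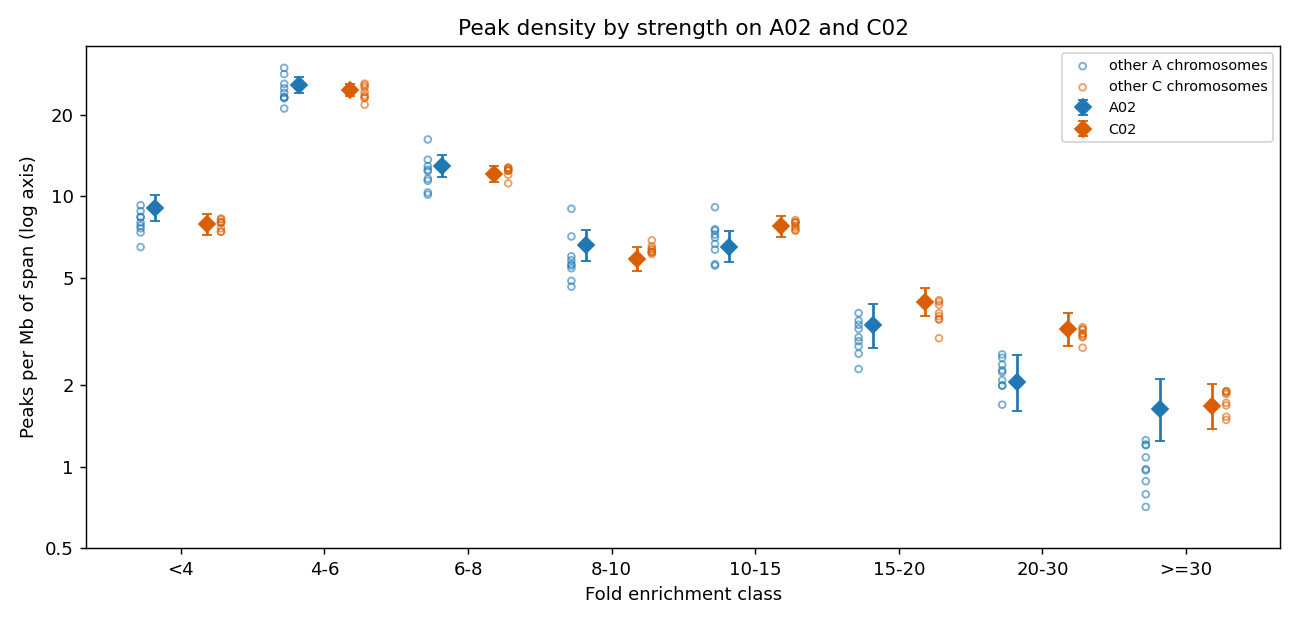
Peaks per Mb of span (log axis) in 8 classes of fold enrichment. Diamonds are A02 and C02 with 95% Poisson intervals, and open circles are the other A and C chromosomes. In the class from 20 to 30, A02 (2.06) sits among the A chromosomes, while from 30 upwards it (1.64) sits above all of them and beside C02 (1.67).

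The strongest sites were spread over both chromosomes. On A02 the highest fold was 73.6, at 26558226 to 26558885, 74.9% along the span. The next was 72.8 at 32032200 to 32032849, and these are the only members among the 10 strongest peaks of the whole list. The next in order had a fold of 71.8 at 12625106 to 12625726. Before it, at an edge distance of 560 kb, lay a peak of 53.4-fold at 12064731 to 12065358, and 11.7 kb behind that one lay a peak of 46.3-fold at 12077053 to 12077662. So 3 of the 10 strongest peaks of A02 fell in one short stretch, from 34.0 to 35.6% of the span. A peak of 65.0-fold lay at 17061499 to 17062044. The fifth, of 63.7-fold at 23626677 to 23627188, stood directly behind a peak-free interval of 332 kb. The remaining peaks of the 10 were at 5749082 to 5749802 (fold 49.9), 34441989 to 34442490 (fold 48.8) and 7516734 to 7517305 (fold 48.2).

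On C02 the highest fold was 72.3, at 17253759 to 17254439, 26.2% along the span. It ranked 11 in the whole list, just behind the best pair of A02. A peak of 70.9-fold followed at 9701991 to 9702593. The third, of 58.3-fold at 43981476 to 43982057, lay at 66.9% of the span, close to the 66.7% of the fifth of A02. The second of A02 (90.4%) and the ninth of C02 (90.3%) lay closer still. Whether any of these sites correspond in sequence was not analysed here. A peak of 57.5-fold lay near the start of the chromosome at 3518548 to 3519163. Near its end, 62540764 to 62541314 (fold 55.3) and 63194448 to 63195265 (fold 54.1) lay 653 kb apart. The others were at 14264045 to 14264749 (fold 54.3), 50195581 to 50196113 (fold 53.1), 59379313 to 59380679 (fold 52.7) and 24512426 to 24513034 (fold 50.9). Folds of 50 and more were found for 6 peaks on A02 and 11 on C02 (0.259% of the whole list reach it), which is 0.169 and 0.167 per Mb. Among the 100 strongest peaks of the list, 5 were on A02 and 6 on C02. For comparison, A02 holds 2408 and C02 4421 of the 62949 peaks of the list, and these small counts set neither apart.

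The peaks next to the strongest sites were mostly of ordinary strength. The 10 strongest peaks of A02 have 20 neighbour places. A strong peak held 1 of them, beside the strong share of 8.89% over the whole chromosome, and the median fold was 5.10. The peak of 3.13-fold between the sites of 53.4-fold and 46.3-fold is counted for both. Of the 20 places on C02, 4 held a strong peak, beside 11.5% over the chromosome, and the median was 5.59. These counts are too small to set either apart from its chromosome. A neighbour within 1 kb was present for 1 of the 10 sites on A02 and 4 of the 10 on C02. The median distance from a top site to its neighbour was 12.4 kb on A02 and 11.3 kb on C02. Genes near these sites were not analysed here, since the annotation of this assembly was not used.

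**Figure D2:**
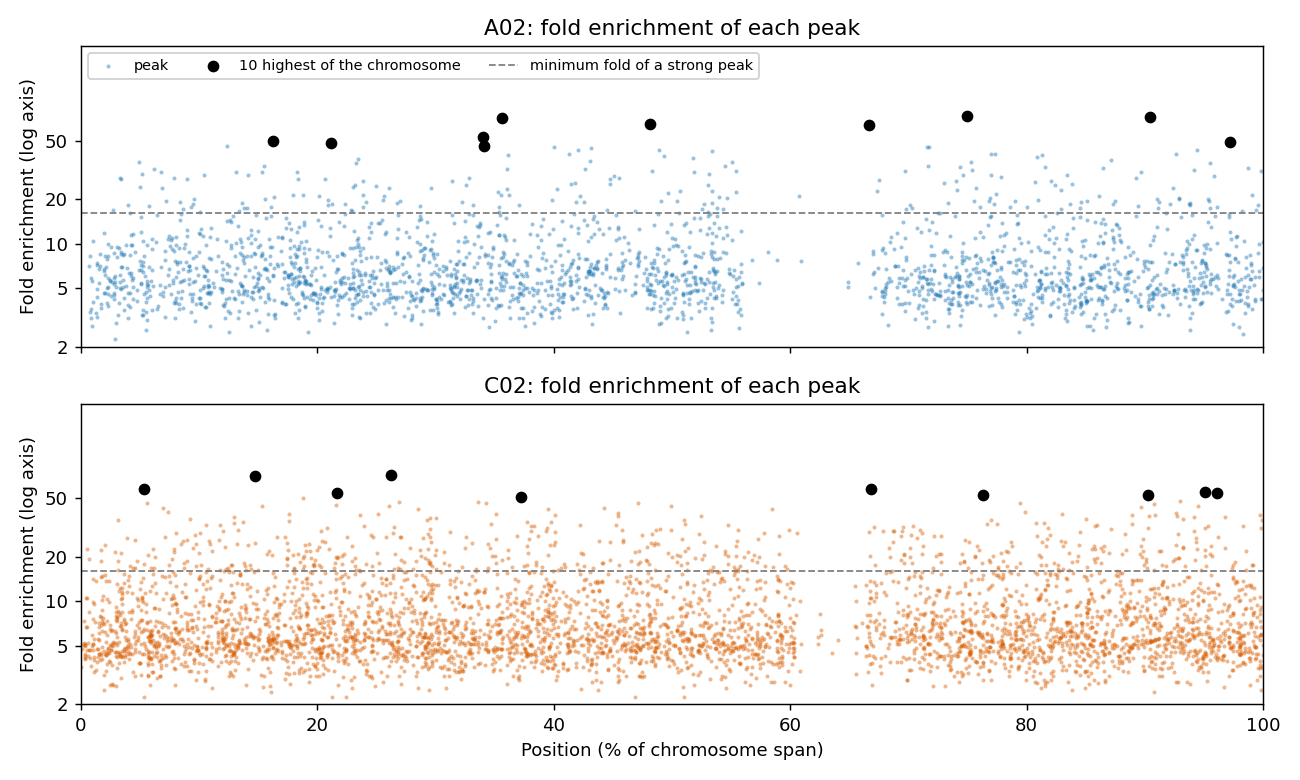
Fold enrichment (log axis) of each peak against its position in % of the chromosome span, on A02 (top) and C02 (bottom). Black points are the 10 highest of each chromosome and the dashed line is the fold of 16.1 from which a peak is called strong. Peaks of all strengths run along both chromosomes except for one nearly empty stretch at about the same relative position.

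Along both chromosomes the density was fairly level, apart from one trough. In 10 bins of 10% of the span, the emptiest on both chromosomes was the one from 60 to 70%. It held 18.1 peaks per Mb (13.9 to 23.1) on A02 and 23.7 (20.1 to 27.7) on C02, and these intervals overlap. The other 9 bins held between 48.8 and 84.1 per Mb on A02 and between 63.0 and 78.6 on C02. A02 was densest from 10 to 30%, with 84.1 and 83.2 per Mb, and C02 from 20 to 30%, with 78.6. A trough near this position was not particular to the pair. In bins of 5% of the span, C03 held 25.5 per Mb from 60 to 65% and 17.6 from 65 to 70%. A05 held 2.29 from 55 to 60% and 11.9 from 60 to 65%. Other chromosomes had troughs elsewhere, such as C04 with 0.278 per Mb from 35 to 40%.

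Strong peaks followed the trough but differed in level. C02 had the higher density of strong peaks in 9 of 10 bins and the higher strong share in 9 of 10. The exceptions were the bin from 70 to 80% for density, with 8.18 per Mb on A02 against 7.60 on C02, and the bin from 50 to 60% for share, with 12.14% against 12.08%. In the finer 20 bins of 5% used for the profiles, C02 had the higher strong density in 13 and the higher strong share in 16. The strong share in the bin from 60 to 70% was 9.38% (4.37 to 18.98%) on A02 and 12.2% (7.94 to 18.2%) on C02. On each chromosome that interval includes the chromosome's own overall share. The median fold per bin stayed between 5.63 and 6.29 on A02 and between 5.83 and 6.53 on C02.

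**Figure D3:**
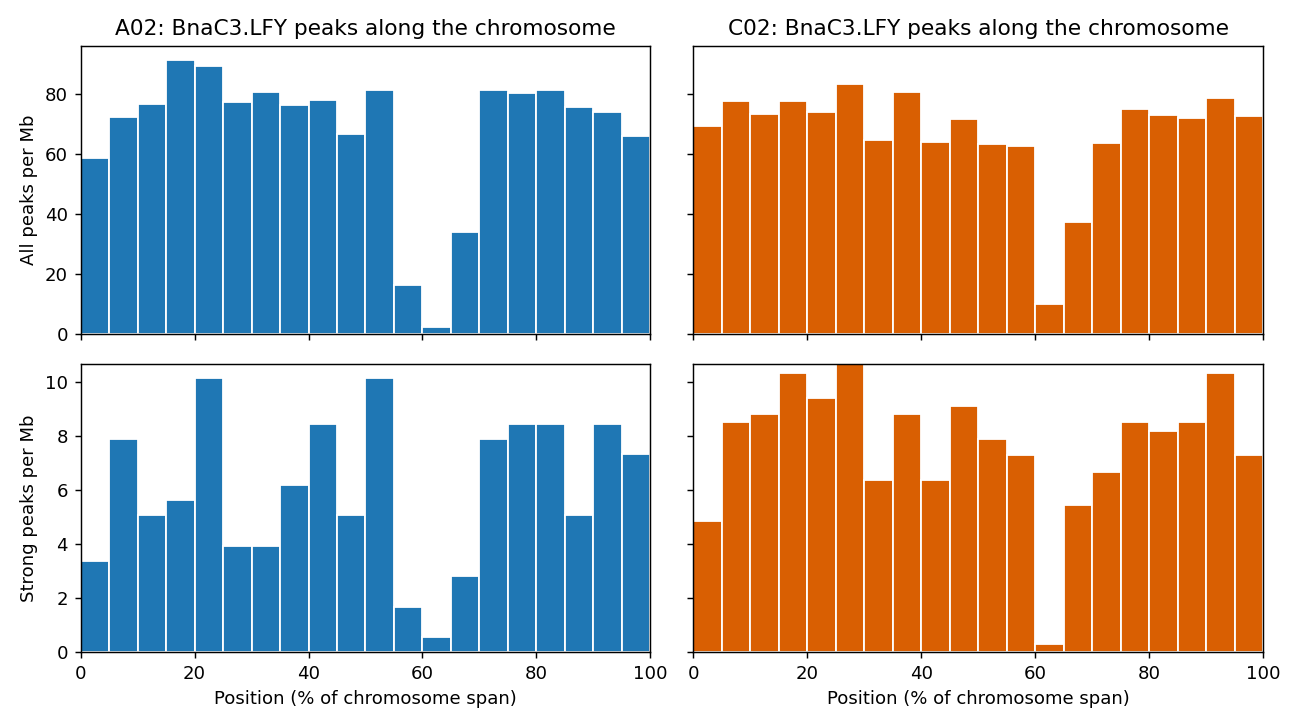
Peaks per Mb (top) and strong peaks per Mb (bottom) in 20 bins of 5% of the span, for A02 (left) and C02 (right). A02 drops between 55 and 70% of the span and C02 between 60 and 70%, and C02 is higher in strong peaks in 13 of the 20 bins.

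The ends of both chromosomes held somewhat more peaks per Mb than the middle, on A02 depending on how these are defined. This compares only those parts, and the density did not rise steadily towards either end of A02 or the start of C02. With the outer 20% at each side as ends and the span from 40 to 60% as middle, A02 held 74.5 peaks per Mb at its ends and 60.5 in its middle, a ratio of 1.23 (1.10 to 1.38). C02 held 74.3 and 65.4, a ratio of 1.14 (1.05 to 1.23). The outermost bins of 10% held 65.5 and 69.98 per Mb on A02 and 73.4 and 75.7 on C02. The next bins inward held 84.1 and 78.5 on A02 and 75.4 and 72.5 on C02. The bins from 20 to 40%, in neither part, held 83.2 and 78.5 on A02 and 78.6 and 72.7 on C02. Those from 60 to 80%, also in neither part, held 18.1 and 80.7 on A02 and 23.7 and 69.3 on C02. With only the outer 10% at each side as ends, the ratio of A02 was 1.12 (0.980 to 1.28), an interval that includes 1, and that of C02 was 1.14 (1.04 to 1.25). The trough of A02 begins inside this middle part. With it left out, the ratio of A02 was 1.02 (0.912 to 1.15), and that of C02 stayed at 1.14, because its trough lies outside the middle. For strong peaks no difference between ends and middle was detectable at these counts, with ratios of 1.01 (0.700 to 1.48) on A02 and 1.09 (0.857 to 1.39) on C02.

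The outermost bases were alike on the pair. The first Mb held 50 peaks on A02 and 48 on C02, and the last Mb held 68 on each. Strong peaks numbered 1 and 2 in the first Mb and 7 and 7 in the last. Over 5 Mb the first stretch held 28 strong peaks on each chromosome, and the last held 36 on A02 and 44 on C02. The first peak of A02 starts at 243279 and that of C02 at 22095, so part of the first Mb of A02 lies before any peak.

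The trough can be placed more closely in bins of 1 Mb. Called sparse with fewer than 20 peaks, a limit set after seeing the values, the bins from 20 to 24 Mb of A02 and from 40 to 43 Mb of C02 formed one run on each chromosome, and no other full bin was sparse. The centres of the runs lay at 62.1% of the span of A02 and 63.1% of that of C02. The A02 stretch of 4 Mb held 19 peaks, or 4.75 per Mb (2.86 to 7.42), and the C02 stretch of 3 Mb held 10, or 3.33 per Mb (1.60 to 6.13). The emptiest bins were 22 to 23 Mb of A02 and 42 to 43 Mb of C02, with 1 peak each. Elsewhere the full bins held 48 to 104 peaks on A02 (median 76) and 34 to 110 on C02 (median 71).

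Few peaks lay inside the stretch. On A02, 4 of the 19 were strong. They were the peak of 63.7-fold named above, one of 21.1-fold at 21512017 to 21512428, one of 22.6-fold at 23863368 to 23863844 and one of 27.3-fold at 23922165 to 23922705, so 3 of the 4 lay in its last bin. On C02, 0 of the 10 were strong, and the highest fold was 10.1 at 40028518 to 40028903. That is 1 strong peak per Mb (0.272 to 2.56) on A02 and 0 (up to 1.23) on C02, and no difference in strong peaks was detectable there.

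The borders of the stretch were sharper on A02 than on C02. The 3 Mb before it held 79.3 peaks per Mb on A02 and 56.7 on C02, and the 3 Mb after it held 74.0 and 39.7. On C02 the bins from 43 to 46 Mb climbed from 34 over 36 to 49 peaks. Away from the stretch, the start side held 76.4 per Mb (72.6 to 80.3) on A02 and 71.4 (68.8 to 74.1) on C02, and the end side held 75.3 (70.3 to 80.5) and 68.3 (64.9 to 71.7). With the stretch left out of peaks and span, the density ratio of C02 to A02 was 0.925 (0.880 to 0.972), so the near equality over the full span includes a sparse stretch that takes 11.3% of the span of A02 and 4.56% of that of C02. The ratio for strong peaks was then 1.21 (1.03 to 1.43).

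**Figure D4:**
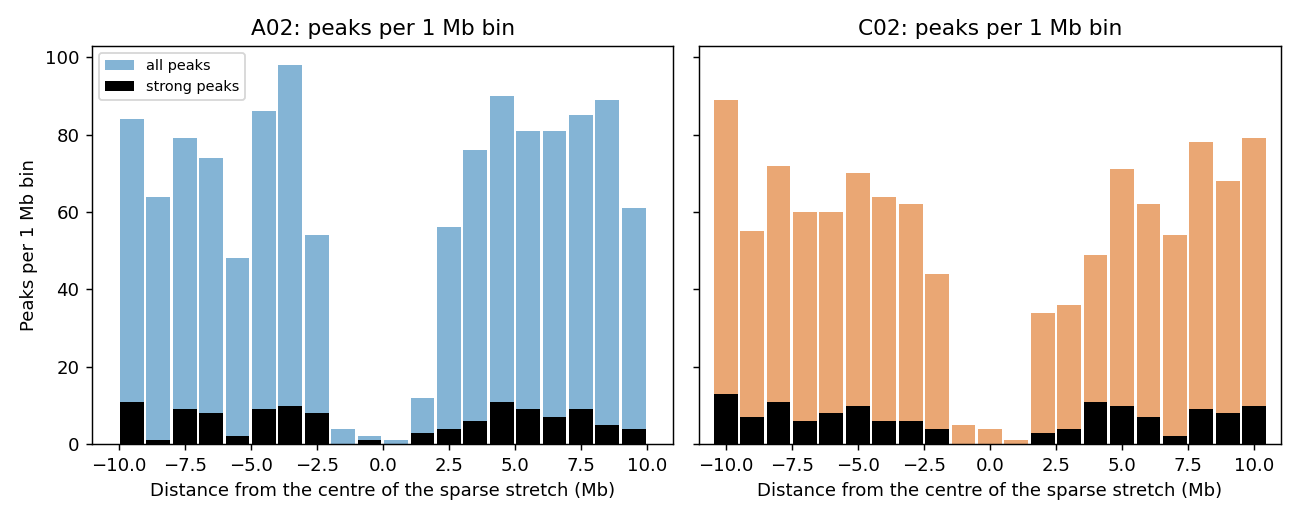
Peaks per 1 Mb bin against distance in Mb from the centre of the sparse stretch, for A02 (left) and C02 (right). Pale bars count all peaks and black bars strong peaks. On the end side, A02 climbs from 12 to 56 and 76 peaks in successive bins, and C02 from 1 to 34, 36 and 49.

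The peak-free intervals gathered in and beside the same stretch. A02 had 2 intervals of at least 500 kb and C02 had 3. The longest of A02 ran for 1.39 Mb from 21600340 to 22986160, 3.91% of its span, and the second for 656 kb from 20855668 to 21512016. Its next 3 were 332 kb from 23294575 to 23626676, 307 kb from 19823395 to 20130100 and 294 kb from 23000336 to 23294157. All 8 intervals of A02 of at least 200 kb lay within 1 Mb of the sparse stretch, and the longest elsewhere was 123 kb. On C02 the longest ran for 961 kb from 42128425 to 43088974, and the second for 925 kb from 40064937 to 40989640. The next 3 were 606 kb from 41157139 to 41762728, 365 kb from 41762972 to 42128098 and 285 kb from 43193258 to 43478015. Of the 6 intervals of C02 of at least 200 kb, 5 lay within 1 Mb of the sparse stretch, and the sixth, of 212 kb, lay from 23496563 to 23708904. Intervals of at least 200 kb added up to 3.70 Mb on A02 and 3.35 Mb on C02, although C02 has the longer span. The longest stretch without a strong peak was 2.11 Mb on A02, from 21512429 to 23626676, and 3.99 Mb on C02, from 39841304 to 43830042. What DNA these intervals hold was not analysed here.

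The fullest bins were spread along the pair. The fullest bins of A02 were 6 to 7 Mb with 104 peaks, 18 to 19 Mb with 98 and 8 to 9 Mb with 96, at 18.3, 52.2 and 24.0% of the span. Those of C02 were 19 to 20 Mb with 110 peaks, at 29.7%, 8 to 9 Mb with 90, at 12.9%, and 3 bins tied with 89, which start at 3, 31 and 62 Mb and lie at 5.32, 47.9 and 95.04%. The C02 bin from 19 to 20 Mb also held the most strong peaks, 18. On A02 the most strong peaks in a bin were 11, reached at 8 to 9, 12 to 13 and 26 to 27 Mb. The fullest bin of A02 held only 4 strong peaks. Over the bins that were not sparse, the number of strong peaks went with the number of all peaks at Pearson r = 0.490 on A02 (31 bins) and 0.671 on C02 (62 bins), as a description, since the second count includes the first and all bins share the libraries.

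At fixed relative positions, the agreement of the 2 profiles rested on the trough. Over 20 relative bins of 5% of the span, Pearson's r between A02 and C02 was 0.783 and Spearman's rho was 0.328. The points share the libraries and the peak calling, and they are given as a description. With the 3 bins that touch either sparse stretch left out, r was 0.00520 and rho was -0.0947 over 17 bins. In those 17 bins the density ran only from 58.7 to 91.4 per Mb on A02 and from 63.3 to 83.3 on C02. With each side of the stretch scaled to 10 bins of its own, r was 0.421 and rho 0.242, so a weaker agreement remained under this alignment. For strong peaks alone, r was 0.49 with all bins and 0.0750 without the 3. With C02 turned end to end, r was -0.0812.

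The pair was among the most alike of the A and C chromosomes by this measure. Of 90 pairs of an A with a C chromosome, 1 had a higher r, and the median was 0.00669. By Spearman's rho, which gives the trough less weight, 16 of the 90 were higher. With every chromosome in its deposited orientation, C02 was the closest of 18 to A02 by r, with A05 (0.775) and C03 (0.737) behind it. A02 was the second closest to C02, after C03 (0.851). By rho the partner ranked 5 of 18 for A02 and 4 of 18 for C02. C04 turned end to end had a higher r than the partner with both, 0.807 with A02 and 0.896 with C02. The other 4 same-numbered pairs had r between 0.103 and 0.691. A02 and C02 also accumulated their peaks at a similar pace: the largest gap between their cumulative shares was 2.97 percentage points, against a median of 11.8 over the 90 pairs. The median peak lay at 43.4% of the span on A02 and 45.7% on C02.

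**Figure D5:**
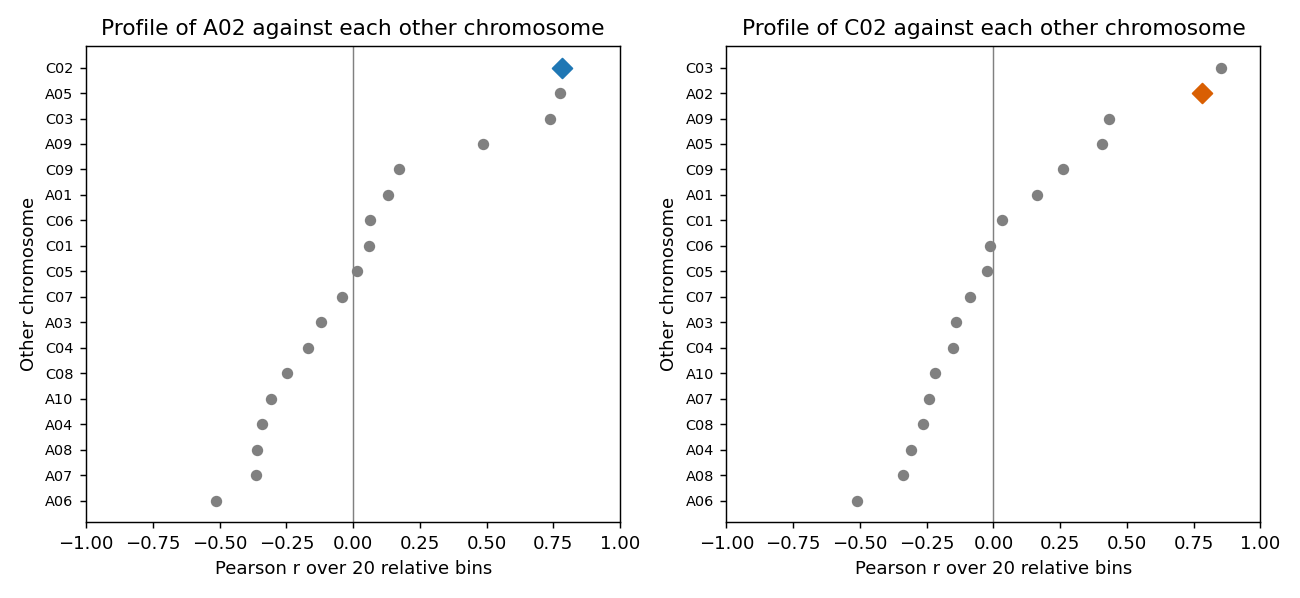
Pearson's r over 20 relative bins between the peak profile of A02 (left) or C02 (right) and that of each other chromosome, in the same orientation. Diamonds mark the pair itself (0.783), which is the highest value for A02 and the second for C02, where C03 stands at 0.851.

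Neighbouring peaks were spaced alike on A02 and C02. No neighbours overlapped. The median distance between edges was 8.08 kb on A02 (quartiles 3.26 and 17.1) and 8.33 kb on C02 (3.14 and 18.7). Edges lay within 500 bp in 3.86% of pairs on A02 (3.16 to 4.71%) and 4.32% on C02 (3.76 to 4.96%), and within 10 kb in 58.0 and 55.3%. Runs of at least 3 peaks joined by such short distances occurred once among the 2408 peaks of A02 and 6 times among the 4421 of C02. These counts are too small to compare. The fullest window of 100 kb held 18 peaks on A02 and 17 on C02. Peaks with no neighbour within 40 kb on either side numbered 16 on A02 (0.664%) and 25 on C02 (0.565%). The other A chromosomes had 0.561 to 1.55% and the other C chromosomes 0.490 to 0.814%.

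Close pairs of strong peaks made up a larger share on C02, with overlapping intervals. Of 213 pairs of successive strong peaks on A02, 12 had centres within 10 kb (5.63%, 3.25 to 9.59%), and of 507 on C02, 51 (10.1%, 7.73 to 13.0%). The median distance between successive strong peaks was 98.5 kb on A02 and 79.3 kb on C02. Both measures depend on the density of strong peaks, 6.04 per Mb on A02 and 7.72 on C02, and were not corrected for it. A neighbour of any strength within 500 bp was present for 4.67% of strong peaks on A02 (2.56 to 8.39%) and 9.25% on C02 (7.03 to 12.1%). For other peaks the shares were 7.98% (6.91 to 9.18%) and 8.38% (7.55 to 9.29%). Each pair of intervals overlaps.

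Peaks of the pair were of similar width, and A02 had few broad ones. The median width was 357 bp on A02 (quartiles 293 and 436) and 367 bp on C02 (294 and 454). The median width grew with fold on both. Below a fold of 4 the median width was 284 bp on A02 and 282 on C02, between 10 and 15 it was 435 on each, and from 30 upwards it was 569 and 576.5. Within a class of fold the medians of the pair differed by at most 8.5 bp. The upper quartile from a fold of 30 upwards was 609 bp on A02 and 698 bp on C02. Strong peaks had a median of 515 bp on A02 and 530 on C02.

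A width of at least 800 bp was reached by 30 peaks on A02 (1.25%, 0.874 to 1.77%) and 96 on C02 (2.17%, 1.78 to 2.64%), against 3.17% in the whole list. A02 ranked 18 of 19 chromosomes in this share. The share of C02 lay within the 1.92 to 2.63% of the other C chromosomes, while the other A chromosomes ran from 1.12 to 9.04%. Of these broad peaks, 7 of 30 were strong on A02 (23.3%, 11.8 to 40.9%) and 47 of 96 on C02 (49.0%, 39.2 to 58.8%), and the intervals overlap slightly. Seen from the strong peaks, 3.27% were broad on A02 (1.59 to 6.60%) and 9.25% on C02 (7.03 to 12.1%), and these intervals do not overlap. The 3 widest of A02 show this mix, since none was strong. They were 3406 bp at 18788487 to 18791892 with a fold of 15.4, 1207 bp at 13809536 to 13810742 with a fold of 10.6 and 1059 bp at 4977867 to 4978925 with a fold of 4.49. The first ranked 5 in width on all chromosomes. The 3 widest of C02 were all strong, with 1960 bp at 56397694 to 56399653 (fold 18.5), 1783 bp at 45156157 to 45157939 (fold 30.01) and 1579 bp at 34499974 to 34501552 (fold 37.8).

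Some rows of the list carry digits that a single line of the peak caller does not have, a fractional score or more than 6 significant digits, and this is called the averaging sign. That such rows are means over more than 1 line is an inference from the digits. It was present in 63.4% of the peaks of A02 (61.5 to 65.3%) and 67.7% of those of C02 (66.3 to 69.0%), against 66.6% in the whole list, and the intervals do not overlap. A02 ranked 18 of 19 in this share. Among strong peaks the shares were 95.8% on A02 and 93.7% on C02, and among other peaks 60.3 and 64.3%. In the sparse stretch the sign was present in 14 of 19 peaks on A02 and in 2 of 10 on C02. All of the 10 strongest peaks of each chromosome carried it. Among peaks with the sign, the strong density of C02 was 1.25 times that of A02 (1.06 to 1.48). How the merging of calls bears on these shares was not tested.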

How the data were processed

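Per the submitters' processing notes, the reads were handled with fastp, Bowtie2, SAMtools, MACS2 and HOMER, with versions and settings not given in the sources used here. ChIP-Seq is in the series title, while its design text and sample titles name DAP, which was followed. The authors deposited 1 peak list with 7 columns and no header, which names no sample. The deposited columns were read from their order and values as interval, score, fold enrichment as a ratio over background, -log10 p and -log10 q. How replicates were combined is not given, and the averaging sign was only inferred from printed digits. Read totals are not in the list.

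Positions are printed counted from 1 in the Westar v0 assembly named by the sequence names. Chromosome lengths, sequence and annotation of that assembly were not used here, so no sequence is printed and span is the end of the last peak. Strong peaks, relative bins, peak-free intervals and neighbours were computed with Python 3.11.15, numpy 2.4.6, scipy 1.17.1 and pandas 2.3.3, and the functions were tested on simulated chromosomes. Named regions are, on each chromosome, the 10 peaks of highest fold, the 5 longest peak-free intervals, the 3 fullest and 3 emptiest full bins of 1 Mb, the 3 with most strong peaks and the 3 widest peaks. Other regions were named after their values were seen. The members, lists and bounds were chosen with earlier results of these data known.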

Additional observations from a re-analysis of the deposited data

How the results depend on the processing

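Over 17 results and 70 alternatives, 34 values stayed within the counting interval, 1.5 times a count or 0.1 of a correlation. The sparse stretch, the averaging sign and the alignment by sides were chosen after seeing the data. The C02 to A02 density ratio moved only without the sparse stretch, to 0.925, and the ratio for strong peaks (1.21 to 1.26) under none of its alternatives. With the 5% of highest fold, however, its interval (0.967 to 1.53) includes 1. Ends against middle gave 1.02 on A02 without the sparse stretch, 1.12 (0.980 to 1.28) on A02 with the outer 10%, and 1.24 on C02 with the outer 25% against the central 50%.

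The correlation of 0.783 was 0.923 with 10 bins, 0.49 for strong peaks, 0.00520 without the sparse bins, 0.421 with sides aligned and -0.0812 with C02 reversed. The reversed value comes from the orientation itself.

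Filters on -log10 q and the averaging sign raise fold and width by construction. With a -log10 q of at least 5, of at least 10 and with the sign, median fold was 6.54, 8.77 and 7.34 on A02 and 6.83, 9.80 and 7.64 on C02. Median width was 374, 419 and 400 bp on A02 and 382, 430 and 408 bp on C02. The strong share with the sign was 13.4% on A02 and 15.9% on C02. Intervals of at least 200 kb numbered 8 on A02 and 6 on C02, and of at least 1 Mb 1 and 0. The longest interval of C02 at a -log10 q of at least 10 was 1948 kb. Close pairs at -log10 q of at least 10 were 1.62% on A02 and 2.92% on C02, at 5 on C02 3.63%, with the sign 2.42 and 2.94%, within 200 bp 0.457 and 0.566% and within 1000 bp 8.97 and 8.82%.

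Replicates could not be left out and no paired analysis was possible because the 1 list names no library. Depth and the true chromosome lengths are unknown, which limits every density.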
